A study of Mus musculus with 12 samples.

Results

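A set of 9 p53 target genes that act in cell death outside the BCL2 family was followed in colon tumours of mice. They are Eda2r, Fas, Tnfrsf10b, Perp, Aen, Zmat3, Trp53inp1, Phlda3 and Psrc1, taken by symbol, and all 9 were found among 21792 genes in the table. RNA of 12 tumours was sequenced, with 3 libraries for each of 4 genotypes in FvB mice. One genotype was wt, and the others lacked p53 (p53 deficient), miR-34a (miR-34a deficient) or both (double deficient) in intestinal epithelial cells (IEC). All tumours, wt included, had been induced with the carcinogen azoxymethane, given by intraperitoneal injection at 10 mg/kg weekly for 6 weeks, and were collected at week 16. The promoter that drives the deletion and the ages of the animals are not stated in the labels. Values are normalized scores per gene, rounded to whole numbers, and depth is unknown. Each library is bulk tumour RNA, in which non-epithelial cells keep both genes, and in which fewer cells of a type and less RNA per cell cannot be told apart.

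The transcription factor p53 switches on genes of cell cycle arrest, repair and cell death after DNA damage, and the microRNA miR-34a is one of its direct targets. Its death targets act at several levels. Fas and Tnfrsf10b encode death receptors, for Fas ligand and for TRAIL, that recruit FADD and caspase-8. Eda2r encodes a related receptor, for ectodysplasin A2, without a death domain. Perp is a tetraspan membrane protein that also builds desmosomes, and Phlda3 is a pleckstrin homology domain protein that restrains the survival kinase AKT. Aen is a nuclease, Zmat3 a zinc finger protein that binds RNA, Trp53inp1 a stress protein of apoptosis and autophagy, and Psrc1 a microtubule protein of the mitotic spindle.

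The deleted microRNA is shown because its seed, bases 2 to 8, in capitals, sets which transcripts it can pair with. The mature sequence is from RefSeq (GRCm38.p6, chr4:150068473-150068494, plus strand). The 30-base stretch of Aen below it is the only match of CACTGCC, the reverse complement of the seed, in the annotated 3' untranslated regions of the 9 genes (GENCODE M21, plus strand, chr7:78910520-78910526, match in capitals).
mmu-miR-34a-5p: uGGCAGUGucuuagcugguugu
Aen: ctgtcacttgatCACTGCCtgtggacctgg
Of 16091 genes in the table with such a region, 2684 (16.7%) held a match, against 1 of the 9 members.

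Promoter windows of 300 bases, from 250 bases before the start site to 50 after it, were found in RefSeq (GRCm38.p6) for 5 of the 9 genes: Eda2r, Fas, Aen, Phlda3 and Psrc1. They were searched for the p53 decamer, a palindromic motif of 10 bases that forms p53 response elements in pairs, on both strands and with no mismatch. Of 32851 such windows 8.36% held it. Among the members only Aen did, at chr7:78895937-78895946. The windows of Eda2r (minus strand, chrX:97377160-97377459) and Phlda3 (plus strand, chr1:135765835-135766134) are shown because these members had the 2 largest falls on loss of p53, pooled, and that of Aen (plus strand, chr7:78895677-78895976) because it holds the match, in capitals.
Eda2r: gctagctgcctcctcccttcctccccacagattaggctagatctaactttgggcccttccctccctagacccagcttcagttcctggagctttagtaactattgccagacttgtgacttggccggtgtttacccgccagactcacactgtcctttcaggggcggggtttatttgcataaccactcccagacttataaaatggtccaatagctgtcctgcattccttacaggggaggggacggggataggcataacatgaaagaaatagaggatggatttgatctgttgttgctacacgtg
Phlda3: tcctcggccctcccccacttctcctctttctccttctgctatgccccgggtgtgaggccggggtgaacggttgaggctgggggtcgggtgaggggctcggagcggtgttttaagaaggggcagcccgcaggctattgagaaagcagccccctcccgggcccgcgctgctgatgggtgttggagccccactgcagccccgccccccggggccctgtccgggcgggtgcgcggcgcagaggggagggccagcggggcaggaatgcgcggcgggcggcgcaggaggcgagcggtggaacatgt
Aen: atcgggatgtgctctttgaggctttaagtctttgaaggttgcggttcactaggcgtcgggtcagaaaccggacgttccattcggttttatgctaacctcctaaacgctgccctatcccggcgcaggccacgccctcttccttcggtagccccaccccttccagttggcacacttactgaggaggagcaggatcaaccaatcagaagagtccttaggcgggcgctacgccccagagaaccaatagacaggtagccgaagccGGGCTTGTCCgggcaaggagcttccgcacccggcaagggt
A match describes these letters only, and p53 sites outside these windows were not searched.

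The targeted gene was read first. Trp53 ranged from 4126 to 4512 in wt tumours, from 3466 to 5120 without miR-34a, from 401 to 598 without p53 and from 504 to 924 without both. Other differences between libraries bear on the results. Squamous epithelial genes were highest in miR-34a deficient 3, where Krt5 was 115764 and Trp63 was 1326, against at most 200 and at most 81 in the other 11 libraries. They were not confined to it. Krt14 was 60691 there and 4209 to 35957 in the others, and the sum of 8 squamous markers was 1172139 and 30939 to 244737. A code in the library names that reads like a sequencing run sets apart 2 libraries, the first of miR-34a deficient and the first of p53 deficient tumours. Y-linked genes averaged 0 (log2) in the first wt and the first miR-34a deficient library, 0.25 to 0.79 in the double deficient and 2.77 to 6.98 in the remaining 7. The X-linked gene Xist was highest in the same first libraries, at 53418083 in miR-34a deficient 1 and 15086160 in wt 1. It was 563257 to 2878644 in the double deficient libraries and 107 to 4877 in the p53 deficient ones. Between double deficient and p53 deficient tumours, effects of miR-34a deletion cannot be told apart from those that go with the Y-linked and Xist levels. These levels were also unevenly spread in the other comparisons with double deficient tumours and in the interaction. The spread within genotypes lacks 1 direction, with 47.2% of its squared weights on double deficient 3. Epithelial genes were high in all 12 libraries, Epcam at 60419 to 144005.

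**Figure D1:**
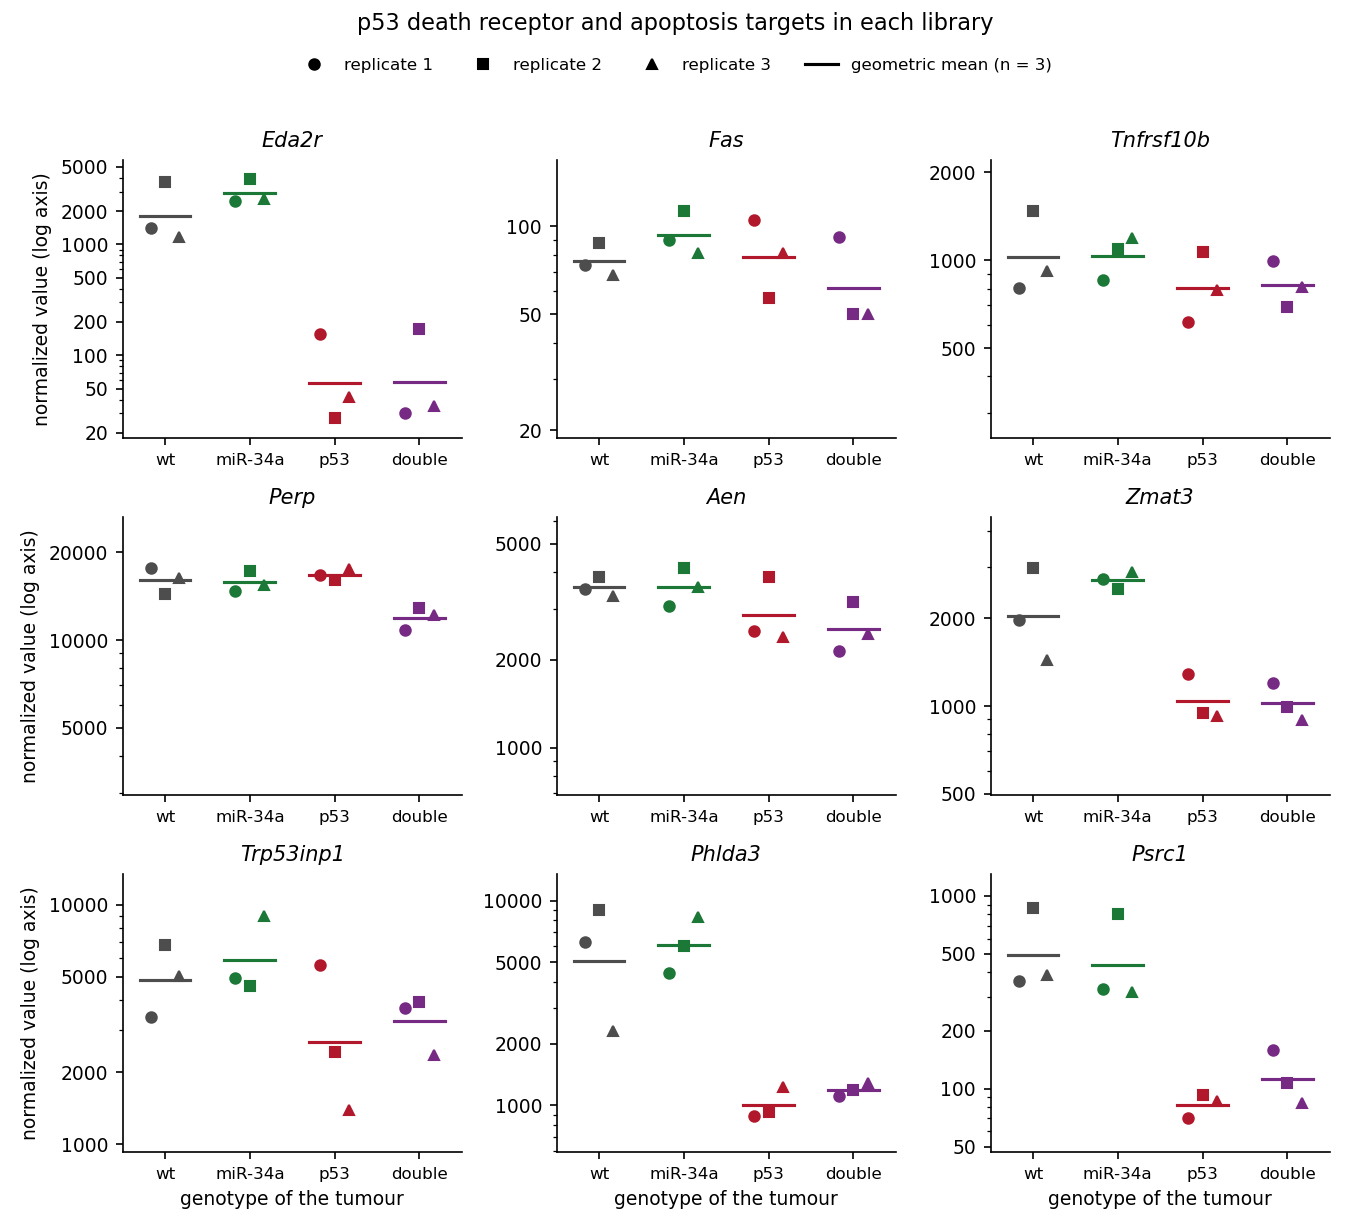
Normalized value (log axis) of each of the 9 genes in the 12 libraries, by genotype. Points are libraries, marker shapes are replicate numbers, which were not treated as pairs in the main fit, and bars are geometric means. Eda2r, Zmat3, Phlda3 and Psrc1 lie lower in all 6 p53-deleted libraries than in all 6 p53-intact ones, and the other 5 genes overlap.

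With p53 lost 4 of the 9 genes fell, and 0 passed as higher. Across the 6 tumours with p53 deleted (p53 deficient and double deficient) against the 6 with p53 intact (wt and miR-34a deficient), Eda2r fell 39.9 times, Phlda3 5.06 times, Psrc1 4.80 times and Zmat3 2.27 times. Fas, Tnfrsf10b, Perp, Aen and Trp53inp1 did not pass. The test was limma on log2 of the value plus 1, and changed genes have a Benjamini-Hochberg adjusted p under 0.05 over all 21322 genes tested. By this rule 2.84% of all genes were lower and 5.05% changed in either direction. At an unadjusted p under 0.05 there were 6 members, among them Aen and Trp53inp1, against 23.8% of all genes. All 9 members had a difference below 0, as had 55.5% of all genes, and their median was -0.86 on the log2 scale, against -0.06 for all genes. For 4 of the 9 the p53-deleted and p53-intact libraries did not overlap, all in the lower direction, against 1.36% of all genes. These 4 calls held in all 22 alternatives run for this comparison. Without miR-34a deficient 3, the library highest in squamous genes, the differences were -5.36 for Eda2r, -2.23 for Phlda3, -2.38 for Psrc1 and -1.16 for Zmat3 (limma adjusted p = 0.00544, 0.0121, 0.0121 and 0.0225). The number of all genes changed, 1076, moved by over 1.5 times without 1 library for wt 1 (521), wt 2 (545), miR-34a deficient 1 (526), 2 (304) and 3 (590), p53 deficient 3 (437), double deficient 2 (588) and double deficient 3 (71).

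**Figure D2:**
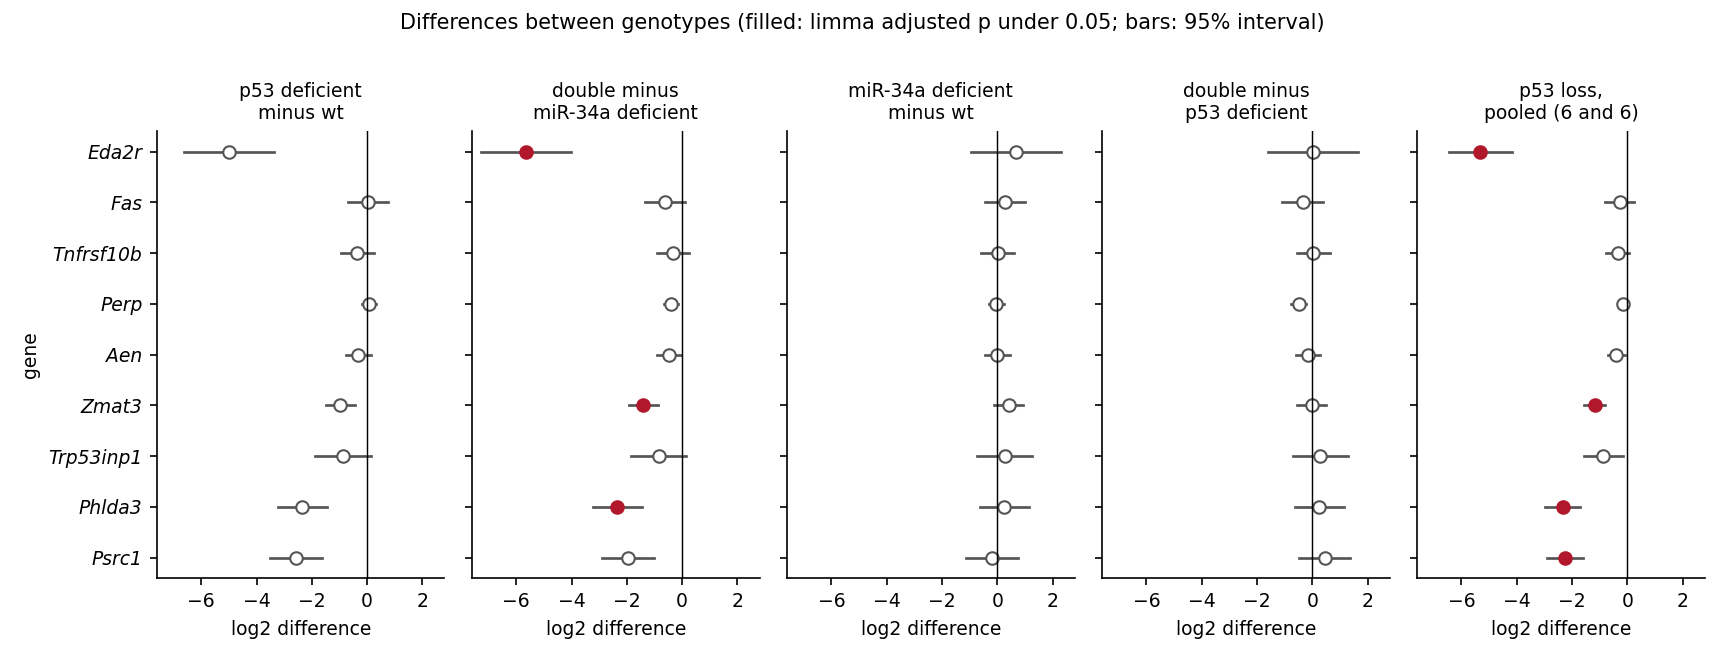
Log2 differences of the 9 genes between genotypes with 95% intervals; filled points have a limma adjusted p under 0.05. Eda2r, Phlda3, Psrc1 and Zmat3 lie left of 0 with their intervals wherever p53 is removed, filled in the pooled panel, and the intervals of all 9 genes in miR-34a deficient minus wt include 0.

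Of the receptors, Eda2r was the one that fell. Eda2r (ENSMUSG00000034457; GRCm38 chromosome X, 97333840 to 97377216, minus strand) read 1411, 3671 and 1164 in the wt libraries, by replicate number, and 2452, 3878 and 2581 in those without miR-34a. Eda2r then read 155, 27 and 42 without p53 and 30, 174 and 35 without both genes. The lowest p53-intact library, wt 3, lay 6.69 times above the highest p53-deleted one, double deficient 2. Eda2r fell by 5.32 ± 0.52 on the log2 scale (SE; n = 6 and 6; limma adjusted p = 0.00112). The order of its mean levels was miR-34a deficient (2970 ± 789, SD, n = 3), wt (2082 ± 1382), double deficient (79.7 ± 81.7) and p53 deficient (74.7 ± 70.0). Only the step from wt to double deficient passed among neighbours in this order. Eda2r is X-linked, and the Y-linked level differed between libraries; with that level as a covariate its difference was -5.29 ± 0.55 (limma adjusted p = 0.00316). In the p53-deleted libraries Trp53 read, by replicate number, 598, 401 and 576 without p53 and 924, 504 and 724 without both genes. Eda2r had the same order as Trp53 in the p53 deficient libraries and the reverse order in the double deficient ones. The relation between the remaining Trp53 and Eda2r values was not tested.

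The classical death receptor genes overlapped between genotypes. Fas (ENSMUSG00000024778; chromosome 19, 34290666 to 34327772, plus strand), whose product binds Fas ligand, read 74, 88 and 68 in the wt libraries, by replicate number, and 90, 113 and 81 in those without miR-34a. Fas then read 105, 57 and 81 without p53 and 92, 50 and 50 without both genes. Of the 6 p53-deleted libraries 3 lay below every p53-intact one, and p53 deficient 1 was the second highest of the 12. Its pooled log2 difference was -0.28 ± 0.23 (limma adjusted p = 0.498), with a 95% interval from -0.79 to 0.23.

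Tnfrsf10b (ENSMUSG00000022074; chromosome 14, 69767472 to 69784411, plus strand), the mouse receptor of TRAIL, read 801, 1475 and 916 in the wt libraries, by replicate number, and 854, 1091 and 1190 in those without miR-34a. Tnfrsf10b then read 615, 1064 and 792 without p53 and 998, 692 and 809 without both genes. The ranges of all 4 genotypes overlapped. The pooled log2 difference was -0.34 ± 0.19 (limma adjusted p = 0.300), with a 95% interval from -0.76 to 0.08, so a fall the size of that of Zmat3 lies outside the interval.

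Of the signalling and membrane members, Phlda3 fell and Perp did not pass. Phlda3 (ENSMUSG00000041801; chromosome 1, 135766119 to 135769136, plus strand) read 6258, 8986 and 2312 in the wt libraries, by replicate number, and 4410, 6014 and 8268 in those without miR-34a. Phlda3 then read 883, 928 and 1221 without p53 and 1106, 1193 and 1281 without both genes. The p53-deleted libraries lay close together (1011 ± 184 and 1193 ± 87.5, SD, n = 3), whereas wt spread widely (5852 ± 3355), with wt 3 as its low library. Phlda3 fell by 2.34 ± 0.29 on the log2 scale (limma adjusted p = 0.00423), and its lowest p53-intact value was 1.80 times its highest p53-deleted value.

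Perp (ENSMUSG00000019851; chromosome 10, 18845020 to 18857073, plus strand) read 17644, 14354 and 16368 in the wt libraries, by replicate number, and 14727, 17211 and 15462 in those without miR-34a. Perp then read 16741, 16076 and 17539 without p53 and 10806, 12907 and 12151 without both genes. The libraries without p53 lay within the range of wt, and those without both genes lay below all 9 others. The log2 difference of double deficient from p53 deficient tumours was -0.49 ± 0.12 (limma adjusted p = 0.0987; unadjusted p = 0.00157) and that from wt was -0.43 ± 0.12 (adjusted p = 0.129), so neither passed. The interaction of the deletions, which asks whether p53 loss acts differently with and without miR-34a, was -0.47 ± 0.17 (limma adjusted p = 0.544; unadjusted p = 0.0182). The summed value of 8 epithelial markers, none at 0 in any library, was 603098 to 807333 in p53 deficient and 532282 to 578726 in double deficient tumours. In wt and miR-34a deficient tumours, where Perp was higher than in double deficient ones, the sum was 521024 to 759973 and 451486 to 547937. Both ranges of the sum reached below that of double deficient tumours. The mean log2 value of the same markers, in which each gene counts equally, was 14.12 to 14.56 in double deficient tumours. It was 14.58 to 15.18 in wt, 14.44 to 14.63 in miR-34a deficient and 14.63 to 14.95 in p53 deficient tumours. By this measure only miR-34a deficient tumours overlapped with double deficient ones. The part of epithelial content in the Perp values was not tested.

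**Figure D3:**
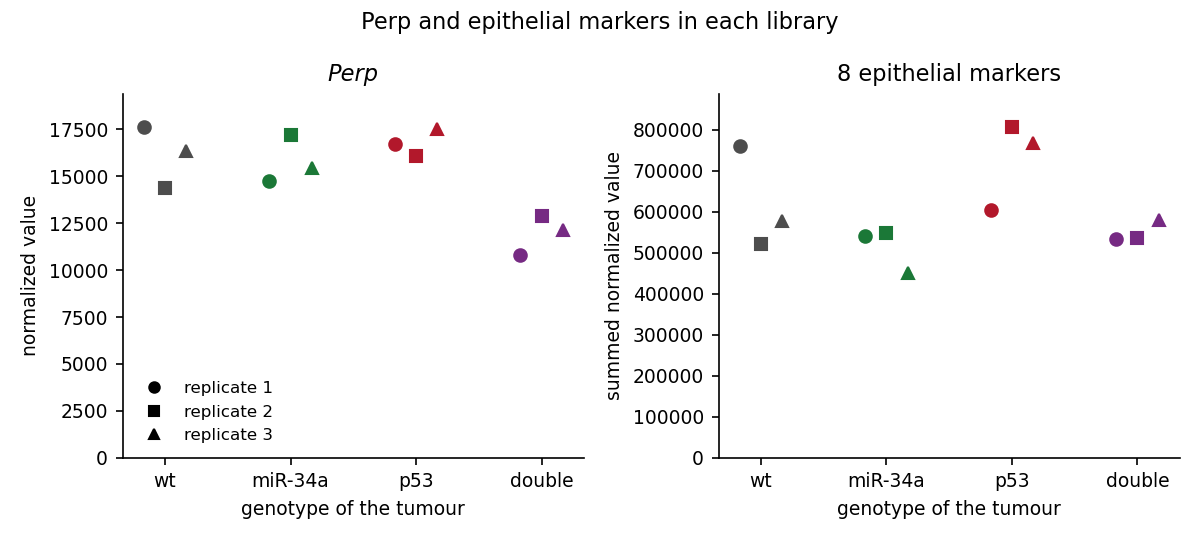
Normalized value of Perp (left) and summed normalized value of 8 epithelial markers (right) in each library, by genotype; points are libraries and both axes start at 0. Perp is lowest in the 3 double deficient libraries (10806 to 12907), whose epithelial sums lie below those of p53 deficient tumours and inside the range of wt. By the mean log2 value of these markers, not shown, the double deficient libraries lie below wt as well.

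Of the members that work on RNA or in the nucleus, Zmat3 passed and Aen did not. Zmat3 (ENSMUSG00000027663; chromosome 3, 32334792 to 32366014, minus strand) read 1975, 2971 and 1439 in the wt libraries, by replicate number, and 2737, 2519 and 2880 in those without miR-34a. Zmat3 then read 1289, 950 and 922 without p53 and 1200, 995 and 899 without both genes. The p53-intact and p53-deleted groups did not overlap but lay close, the lowest p53-intact value (wt 3) being 1.12 times the highest p53-deleted one (p53 deficient 1). Zmat3 fell by 1.18 ± 0.17 on the log2 scale (limma adjusted p = 0.00936).

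Aen (ENSMUSG00000030609; chromosome 7, 78895854 to 78911209, plus strand) read 3498, 3856 and 3306 in the wt libraries, by replicate number, and 3066, 4126 and 3556 in those without miR-34a. Aen then read 2513, 3835 and 2397 without p53 and 2152, 3158 and 2446 without both genes. Of the 6 p53-deleted libraries 4 lay below every p53-intact one, and p53 deficient 2 was the third highest of all 12. Its pooled log2 difference was -0.40 ± 0.14 (limma adjusted p = 0.125). Without p53 deficient 2 it was -0.50 ± 0.12 (adjusted p = 0.0463), and over the 22 alternatives the adjusted p ranged from 0.0463 to 0.256. Aen, the member with the seed match and the p53 decamer shown above, differed by 0.00 ± 0.20 between miR-34a deficient and wt tumours, with a 95% interval from -0.44 to 0.45. Between double deficient and p53 deficient tumours it differed by -0.16 ± 0.20, with a 95% interval from -0.61 to 0.29. An effect of either site was not tested.

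Trp53inp1 (ENSMUSG00000028211; chromosome 4, 11156431 to 11174379, plus strand) was the most variable member in p53 deficient tumours apart from Eda2r (coefficients of variation of 70.0% and 93.7%). Trp53inp1 read 3396, 6787 and 5026 in the wt libraries and 4959, 4598 and 8953 in those without miR-34a, the last being the library highest in squamous genes. Trp53inp1 then read 5606, 2422 and 1391 without p53 and 3702, 3947 and 2369 without both genes. The p53-intact and p53-deleted libraries overlapped, although the double deficient ones lay below all miR-34a deficient ones. The pooled log2 difference was -0.86 ± 0.32 (limma adjusted p = 0.136). Single libraries moved it: without p53 deficient 1, the high one, it was -1.13 ± 0.26 (adjusted p = 0.0337), and without miR-34a deficient 3 it was -0.71 ± 0.33 (adjusted p = 0.243). Over the 22 alternatives the adjusted p ranged from 0.0337 to 0.290.

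Psrc1 (ENSMUSG00000068744; chromosome 3, 108383839 to 108388231, plus strand), the spindle protein gene, read 362, 865 and 389 in the wt libraries, by replicate number, and 328, 803 and 317 in those without miR-34a. Psrc1 then read 70, 93 and 86 without p53 and 158, 107 and 84 without both genes. In both p53-intact genotypes replicate 2 was the high library. The lowest p53-intact value was 2.01 times the highest p53-deleted one, and Psrc1 fell by 2.26 ± 0.30 on the log2 scale (limma adjusted p = 0.00638).

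The comparisons of single genotypes had 3 libraries against 3. In p53 deficient against wt tumours 0 of 9 members passed limma's test, as 0.0234% of all genes did (0.0188% lower), and 4 of 9 had an unadjusted p under 0.05, against 15.3% of all genes. These 4 were Eda2r at -4.99 ± 0.74 (adjusted p = 0.0604), Psrc1 at -2.57 ± 0.43 (0.0684), Phlda3 at -2.34 ± 0.40 (0.0800) and Zmat3 at -0.97 ± 0.24 (0.122). For the same 4 the groups did not overlap, against 9.27% of all genes lower without overlap. Phlda3 passed without wt 3 (-2.91, adjusted p = 0.0058), and Eda2r without p53 deficient 1 (-5.71, adjusted p = 0.0201) or double deficient 2 (-4.99, adjusted p = 0.0391).

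With miR-34a absent, 3 of 9 members fell on loss of p53, against 0.619% of all genes lower and 0.905% changed in either direction. In double deficient against miR-34a deficient tumours Eda2r fell by 5.65 ± 0.74 (limma adjusted p = 0.00775), Phlda3 fell by 2.34 ± 0.40 (adjusted p = 0.0260) and Zmat3 fell by 1.40 ± 0.24 (adjusted p = 0.0257). Psrc1 was at -1.95 ± 0.43 (adjusted p = 0.0619). For 6 of 9 members the groups did not overlap, all lower, against 14.3% of all genes, and 6 had an unadjusted p under 0.05, against 18% of all genes. Eda2r passed in 22 of 23 alternatives (without double deficient 3 the adjusted p was 0.0510). Zmat3 passed in 15 and Phlda3 in 14. Their calls ended without miR-34a deficient 2 (adjusted p = 0.0933 and 0.0951 for Zmat3 and Phlda3), miR-34a deficient 3 (0.0718 and 0.0738), double deficient 2 (0.0616 and 0.0585) or double deficient 3 (0.150 and 0.127). Zmat3 was also lost without miR-34a deficient 1 (0.0712), Phlda3 without double deficient 1 (0.0657), and Psrc1 passed without wt 2 (0.0482).

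Against wt, double deficient tumours also had 3 of 9 members lower, where 0.582% of all genes were and 0.802% changed in either direction. For 6 of 9 the groups did not overlap, all lower, against 10.1% of all genes, and 6 had an unadjusted p under 0.05, against 15.3%. Eda2r fell by 4.97 ± 0.74 (limma adjusted p = 0.0156), Psrc1 fell by 2.13 ± 0.43 (adjusted p = 0.0485) and Phlda3 fell by 2.09 ± 0.40 (adjusted p = 0.0446). Zmat3 was at -0.99 ± 0.24 (adjusted p = 0.0886). Eda2r lost its call without wt 1, double deficient 1 or double deficient 3 (adjusted p = 0.0588, 0.0644 and 0.0932) and kept it in the other 20 alternatives. Phlda3 passed in 8 of 23 alternatives and Psrc1 in 5, with adjusted p up to 0.156 and 0.231, both reached without double deficient 3. At least 1 of these 2 calls ended in every fit that left out 1 library except the fit without p53 deficient 2, and both ended without wt 1, wt 2, miR-34a deficient 1, p53 deficient 3 or any double deficient library.

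On deletion of miR-34a no member passed, with p53 present or absent. In miR-34a deficient against wt tumours 0 of 9 passed limma's test, as 0.0375% of all genes did, and 0 of 9 had an unadjusted p under 0.05, against 6.09% of all genes. For 0 of 9 the groups lay apart in the lower direction, against 3.57% of all genes, and 0.0234% of all genes passed as lower. The differences ranged from -0.18 ± 0.43 for Psrc1 to 0.67 ± 0.74 for Eda2r, whose 95% interval runs from -0.95 to 2.30. The narrowest interval was that of Perp, from -0.29 to 0.23. On the p53-deleted background, in double deficient against p53 deficient tumours, 0 of 9 passed, against 0.605% of all genes and 0.38% lower. These genotypes also differed in Y-linked and Xist levels, as given above. Perp alone had an unadjusted p under 0.05, against 15.1% of all genes, and groups that lay apart in the lower direction, against 8.89%. There Eda2r differed by 0.02 ± 0.74 (95% interval from -1.60 to 1.64), Zmat3 by -0.02 ± 0.24 (-0.55 to 0.50), Phlda3 by 0.25 ± 0.40 (-0.63 to 1.14) and Psrc1 by 0.44 ± 0.43 (-0.49 to 1.38). The interaction passed for 0 of 9 members and 0.0234% of all genes, and Perp was the only member with an unadjusted p under 0.05, against 7.89% of all genes. For Phlda3 the effect of p53 loss differed by 0.00 ± 0.57 between the miR-34a backgrounds (95% interval from -1.25 to 1.25), and for Eda2r by -0.66 ± 1.05 (-2.95 to 1.64). Intervals this wide leave differences of over 2 times undecided for both genes.

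Members also varied among libraries of 1 genotype. In wt tumours 8 of the 9 genes were highest in wt 2, all but Perp, while wt 2 was the highest wt library for 32.9% of all genes. In wt 3 were the lowest wt values of 5 of the 9, and of 35.2% of all genes. It was also the library that set the lower edge of the p53-intact values of Eda2r, Fas, Zmat3 and Phlda3. As a description over 12 libraries that share genotypes, 34 of 36 pairs of members had a positive Pearson correlation of log2 values, with a median r of 0.56. After each genotype's mean was removed the median was 0.20 and 27 of 36 were positive. The highest was then between Tnfrsf10b and Psrc1 (r = 0.65), followed by Zmat3 and Phlda3 (r = 0.62), and the lowest between Tnfrsf10b and Perp (r = -0.59).

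Genes with the most similar pattern were found by Pearson correlation of log2 values over the 12 libraries among 14329 genes, again as a description. Eda2r was nearest to Stac3 (r = 0.97), Fam212b (0.95) and 9030617O03Rik (0.95). Phlda3 was nearest to Fam102a (0.98), the death receptor gene Tnfrsf25 (0.97) and 9030617O03Rik (0.94). Psrc1 was nearest to Slc2a4rg-ps (0.97), A330023F24Rik (0.96) and Fam212b (0.96), and Zmat3 to Ermard (0.96), Arhgef18 (0.95) and Pla2r1_1 (0.94). Each of the 4 genes that fell had at least 2 other members among its 100 nearest genes, and the 5 that did not pass had 0. The same 12 libraries gave the calls, and genes that separate them by p53 status correlate for that reason. This contrast therefore restates the calls and adds no evidence. Perp was nearest to Tmem45b (0.94), Abat (0.93) and Rhpn2 (0.93), and all 3, like Perp, were lowest in the double deficient libraries (Abat at 59 to 274, Rhpn2 at 4877 to 7356). Trp53inp1 was nearest to Dynap (0.94), Ptpru (0.92) and Zfp322a (0.92), and Dynap peaked at 3665 in miR-34a deficient 3, the library highest in squamous genes. The nearest genes of Fas were Amz1, Bend7 and Gng2 (0.88 each), of Tnfrsf10b Zfp623 (0.94), Fgf11 (0.90) and Git2 (0.88), and of Aen Crybb3 (0.93), Taf4a (0.93) and Tpcn1 (0.91).

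Other genes of the death pathways were read in the pooled comparison, in which 5.05% of all genes changed. Among 25 tested ligands, receptors and adaptors that are no members, 1 fell and 1 rose, with a median log2 difference of 0.03 against -0.06 for all genes. Tnfrsf25, a death receptor mainly of lymphocytes, fell by 1.83 ± 0.28 (limma adjusted p = 0.0119), and Tnfrsf1b, a receptor of tumour necrosis factor, rose by 0.61 ± 0.13 (adjusted p = 0.0300). The ligand genes of the members' receptors did not pass: Tnfsf10 (TRAIL) was at -0.16 ± 0.50 and Eda (ectodysplasin) at 0.24 ± 0.32, and Fasl was not analysed here. Among the partners inside the cell, Fadd was at 0.03 ± 0.15, Casp8 at 0.17 ± 0.14 and Cflar, a brake on caspase-8, at -0.33 ± 0.13 (adjusted p = 0.150). Of 19 caspases, apoptosome genes and inhibitors of apoptosis, Pidd1, which activates caspase-2, fell by 0.81 ± 0.13 (limma adjusted p = 0.0132). The inhibitors Birc3 and Birc5 rose by 0.59 ± 0.13 and 0.63 ± 0.13 (adjusted p = 0.0265 and 0.0264), and the list's median was -0.04.

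Other p53 targets and relatives were set beside the members as counts. In the pooled comparison, used here, 2.84% of all genes were lower and 5.05% changed in either direction. Of 18 arrest and feedback targets 3 fell, Ccng1, Cdkn1a and Sesn2 (by 1.60 ± 0.13, 1.36 ± 0.23 and 1.24 ± 0.16), and the list's median was -0.27. Of 13 genes on the list of metabolic and repair targets, which also holds Fam212b, 5 fell, with a median of -0.29. Fam212b fell by 3.82 ± 0.28, the epoxide hydrolase gene Ephx1 fell by 3.46 ± 0.39 and 9030617O03Rik fell by 2.26 ± 0.19. The glutaminase gene Gls2 fell by 1.15 ± 0.25 and the DNA polymerase gene Polk fell by 0.80 ± 0.17. Of 18 BCL2 family genes Bbc3, which encodes PUMA, fell by 1.39 ± 0.26 and Mcl1 by 0.40 ± 0.08, Bcl2l2 rose by 0.79 ± 0.19, and the median was -0.14. Of 20 other p53 death genes Ei24 and Rps27l fell, by 0.34 ± 0.08 and 0.42 ± 0.09, with a median of -0.14. Of 11 relatives of the members only Trp53inp2 fell, by 0.70 ± 0.11 (limma adjusted p = 0.0108), while its paralog Trp53inp1 did not pass. Phlda1 and Phlda2, relatives of Phlda3, were at -0.22 ± 0.24 and 0.19 ± 0.29, and Zmat1, a relative of Zmat3, was at -0.99 ± 0.35 (adjusted p = 0.116). Outside the pooled comparison, Siva1, of the other p53 death genes, fell by 0.80 ± 0.15 in double deficient against wt tumours (limma adjusted p = 0.0371). Pmp22, a relative of Perp, fell by 1.87 ± 0.37 there (adjusted p = 0.0485). The lists were chosen with results of these data known, so their counts are no independent evidence.

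**Figure D4:**
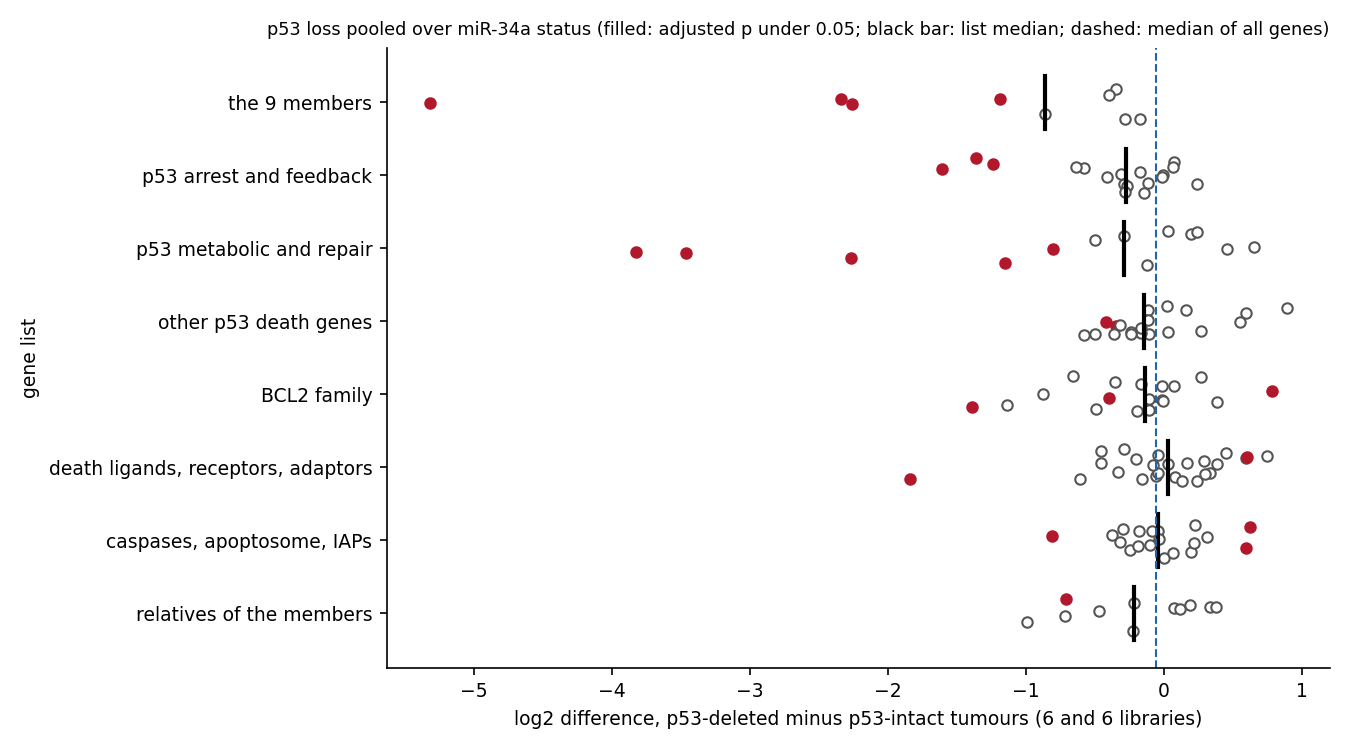
Log2 difference of each gene between the 6 p53-deleted and the 6 p53-intact libraries, by gene list; filled points have a limma adjusted p under 0.05, black bars are list medians and the dashed line is the median of all genes (-0.06). The 9 members have the median furthest below that line (-0.86), and they include the gene with the lowest value shown, Eda2r (-5.32).

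Markers of the cell types that a tumour piece can hold were read beside these results. Of 74 markers of 11 cell types, 64 were in the table and 63 were tested. On loss of p53, pooled, 0 of 63 passed limma's test, against 5.05% of all genes. An unadjusted p under 0.05 was found for 11, against 23.8% of all genes. For each of the 11 types the summed marker values of p53-deleted and p53-intact libraries overlapped. Only 1.36% of all genes were lower without overlap, so overlap is the usual outcome and does not show equal composition. Epithelial sums were 451486 to 759973 with p53 intact and 532282 to 807333 with p53 deleted, and fibroblast sums 16303 to 42639 and 9800 to 37778. Double deficient tumours stood apart in 2 of these sums, those of neutrophil and of adipocyte markers. The sum of 6 neutrophil markers was 2244 to 3443 in them and 4529 to 13593 in the other 9 libraries, but most of it came from Ly6g (1407 to 2469, against 4410 to 13517). The other 5 had differences above 0 in double deficient against wt tumours, none of which passed, and the median of the 6 was 2.31 on the log2 scale. S100a9, for example, was 448 to 518 in double deficient and 22 to 93 in wt tumours (log2 difference 3.64 ± 1.28, limma adjusted p = 0.205). Pooled over p53 loss, 5 of 6 were again above 0, with a median of 1.41. The sum of 2 adipocyte markers was 83 to 104 in double deficient tumours, against 18 to 67 in the others. The sum of 6 endothelial markers was 1517 to 2848, against 670 to 1536 in wt. By limma's test 3 of the 63 markers passed in double deficient against wt tumours, where 0.802% of all genes did. The endothelial genes Cdh5 and Flt1 rose, and Ly6g fell. The part of these cell types in the members' values was not tested.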

How the data were processed

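RNA sequencing was done on 12 colon tumours, 3 libraries per genotype; RNA came from a QIAGEN kit and libraries from an Illumina protocol, per the labels. The table deposited by the authors holds score values: normalized, whole-number values for each gene symbol. Per the submitters' processing notes the reads were placed on mm10; how they were aligned, counted and scaled is not given in the sources used here. Values entered the fits as log2(value + 1), unscaled. limma 3.58.1 (R 4.3.3) was run on the 21322 genes averaging at least 1, with a prior variance trend, 1 mean per genotype and 8 residual degrees of freedom. Among 9791 genes averaging at least 500, the last singular value of the spread within genotypes was 0.179, against 32.2 for the one before. Counting 8 degrees of freedom may therefore make SE, intervals and p-values too small. The fit was first run on simulated data, but their noise lacked no direction, so that check does not cover this point. SE and intervals are limma's. Whether libraries come from separate animals is not stated, so the p-values reflect the scatter of these samples only, which may be technical. The pooled comparison is the mean of the p53-deleted genotypes minus that of the others. Positions are from GENCODE M21 (GRCm38). The members, lists, comparisons and alternatives were chosen with earlier results of these data known. Named are all members, for each the 3 genes nearest in pattern (mean of at least 50), and list genes that passed; further list genes were named after their values were seen. Other settings tried were the pseudocount, filter, scaling, variance trend, groups in the fit, replicate block, run code, absent direction, Y-linked level, and each library left out.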

Additional observations from a re-analysis of the deposited data

How the results depend on the processing

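The fall of Eda2r, Zmat3, Phlda3 and Psrc1 on loss of p53, pooled, kept its direction and its call in all 22 alternatives, and leaving out 1 library gave 4 to 5 members changed. No called value reversed in any alternative of any comparison. Double deficient tumours had 3 members changed against wt but 1 with no filter, with no variance trend, without the 2 other-code libraries, with covariates for the absent direction or for Y-linked genes, and when the fit held only the groups compared; without single libraries the count was 0 to 3. Against miR-34a deficient tumours they had 3 members changed but 1 without the other run code, with the absent direction or with the Y-linked level; without single libraries it was 0 to 4. In p53 deficient against wt tumours leaving out 1 library gave 0 to 1. No clear pairing by replicate number was seen, although this check cannot exclude it. Deviations correlated by over 0.1 in 4 of 18 pairs with a shared number (r from -0.16 to 0.54). Of the 12 libraries 5 were most like one with their number. The replicate block gave 4 members changed in p53 loss, pooled, 2 in double deficient against wt, 2 against miR-34a deficient, and 0 in the other comparisons; the calls lost were those of Phlda3 (limma adjusted p = 0.0722 and 0.0512).

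Counts of all genes changed moved more. In p53 deficient against wt tumours the count was 5, and 3 with a pseudocount of 10, 2 with no filter, the block or the absent direction, 8 without the other run code, 1 with the Y-linked level or only the 2 groups, and 1 to 88 without single libraries. In miR-34a deficient against wt it was 8, and 5 with quantile normalization, no trend, the absent direction or the Y-linked level, and 4 to 12 without single libraries. In double deficient against wt it was 171, and 102 with the block, 74 without the other run code, 57 with the absent direction, 80 with the Y-linked level, 88 with only the 2 groups and 29 to 261 without single libraries. Against p53 deficient it was 129, and 57 with no trend, 47 with the absent direction, 7 with the Y-linked level, 12 with only the 2 groups and 27 to 294 without single libraries. Against miR-34a deficient it was 193, and 79, 57 and 73 without the other run code, with the absent direction and with the Y-linked level, and 23 to 246 without single libraries. For p53 loss, pooled, it was 1076, and 626 with no trend, 508 without the other run code, 321 with the absent direction, 676 with the Y-linked level and 71 to 1328 without single libraries. For the interaction it was 5, and 3 with the block, 2 with the absent direction, 1 with the Y-linked level and 2 to 10 without single libraries. The cause of these shifts was not tested. Depth is unknown, so counting error in low values, such as those of Fas and of Eda2r after p53 loss, could not be separated from the spread between tumours.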
